A study of Rattus norvegicus with 21 samples.

Results

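A set of 9 genes of antigen presentation and the interferon response, Ubd, RT1-Db1, RT1-Da, RT1-Ba, Cd74, Psmb8, Psmb9, Tap1 and Cxcl10, were followed in rat liver over 5 doses of 2-ethylhexyl diphenyl phosphate (EHDP), a phosphate ester that serves as a plasticiser and flame retardant. A gene was taken where a probe set of the array carried exactly 1 gene symbol and that symbol was the gene's name. All 9 genes were found among 14218 measured genes, and their 14 probe sets among 31099. Ubd was chosen by its low values at 244.6 mg/kg beside vehicle, so that its levels against vehicle are given as a description and were not tested. The members are described here by 1 probe set each, the one with the highest mean over all 21 arrays.

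The rats were male Harlan Sprague-Dawley animals, an outbred stock, and each was given EHDP in corn oil or corn oil alone by oral gavage once daily for 4 doses, with the left liver lobe taken on day 5. The groups were vehicle (corn oil, 6 arrays), 61.2, 122.5, 244.6, 489.2 and 978.5 mg/kg (3 arrays each). The protocol speaks of 5 vehicle rats, while 6 arrays carry dose 0, and all 6 were used. The sample labels spell the compound EDHP. Ages are not given in the sources used here. Whole liver tissue was measured, so that fewer cells of a type and less RNA per cell cannot be told apart. Values are log2 signals, on which a difference of 1 is a change of 2-fold; the lowest value on the arrays was 2.77 and the median gene had a mean of 7.52. Array medians lay between 6.33 and 6.41. Hepatocyte markers such as Alb, the serum albumin gene with a mean of 15.34, were at the top of the scale. Replicate 1 of 489.2 mg/kg stood apart in that it was the lowest of the 21 arrays in 5 of the 9 genes, and values with and without it are given below where a result rests on it.

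Antigen presentation shows protein fragments to T cells on molecules of the major histocompatibility complex (MHC), which the rat calls RT1. Class I molecules, found on nearly all cells, carry peptides cut inside the cell by the proteasome. Interferon gamma replaces catalytic subunits of the proteasome by those of the immunoproteasome, Psmb8 and Psmb9 among them, and induces the peptide pump Tap1. Class II molecules belong mainly to dendritic cells, macrophages and B cells. Each is a pair of chains, such as those encoded by RT1-Da and RT1-Db1 or by RT1-Ba and its partner, and Cd74, the invariant chain, guards the peptide groove until it is loaded. Ubd encodes FAT10, a ubiquitin-like protein that tags proteins for the proteasome and is induced by interferon gamma and tumour necrosis factor. Cxcl10 is a chemokine that attracts T cells carrying the receptor Cxcr3 and is likewise induced by interferons.

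Of the 9 genes, 7 lie on chromosome 20, where the rat MHC is found. On the GRCr8 assembly, Ubd spans chr20:1390734-1392685, RT1-Da chr20:4515393-4520387, RT1-Db1 chr20:4550594-4560182 and RT1-Ba chr20:4577057-4581650. Psmb8 spans chr20:4654068-4657049, Tap1 chr20:4658171-4668543 and Psmb9 chr20:4668952-4674421, so that the last pair lie head to head with 408 bases between them. Cd74 lies at chr18:56527071-56536406 and Cxcl10 at chr14:15989066-15991263. RefSeq gave a promoter window, from 250 bases before the annotated start to 50 bases after it, for all 9.

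The promoter of Ubd is shown because its values spread widely between animals of a group, and those of the class II genes because they share an ordered pair of motifs. All sequences are from RefSeq on GRCr8 and are printed 5′ to 3′ on the gene's own strand. Ubd's window is chr20:1392636-1392935 on the minus strand, RT1-Da's chr20:4515165-4515464 on the plus strand, RT1-Db1's chr20:4560113-4560412 on the minus strand and RT1-Ba's chr20:4576807-4577106 on the plus strand. Capitals mark GGG and TTCC with 3 bases between them, a form of the kappaB motif bound by NF-kappaB, in Ubd. In the other sequences they mark GCAAC and GATTGG, letters of the X and Y boxes of class II promoters.
Ubd: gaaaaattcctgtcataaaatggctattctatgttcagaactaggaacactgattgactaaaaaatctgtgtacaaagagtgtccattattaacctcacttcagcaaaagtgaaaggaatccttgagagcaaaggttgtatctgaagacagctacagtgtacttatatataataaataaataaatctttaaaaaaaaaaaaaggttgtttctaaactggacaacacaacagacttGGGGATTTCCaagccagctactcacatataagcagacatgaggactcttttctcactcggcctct
RT1-Da: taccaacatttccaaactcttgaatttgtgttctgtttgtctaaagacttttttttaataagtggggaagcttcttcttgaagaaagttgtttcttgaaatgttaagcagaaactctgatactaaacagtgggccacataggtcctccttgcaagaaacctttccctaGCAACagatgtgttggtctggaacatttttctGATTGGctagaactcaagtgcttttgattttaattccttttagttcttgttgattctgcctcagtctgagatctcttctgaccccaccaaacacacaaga
RT1-Db1: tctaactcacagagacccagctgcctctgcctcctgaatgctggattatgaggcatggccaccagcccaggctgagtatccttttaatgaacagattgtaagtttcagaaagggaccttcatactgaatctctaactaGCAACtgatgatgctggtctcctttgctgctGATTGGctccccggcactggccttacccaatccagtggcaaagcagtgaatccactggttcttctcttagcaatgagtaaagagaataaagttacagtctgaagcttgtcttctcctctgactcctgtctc
RT1-Ba: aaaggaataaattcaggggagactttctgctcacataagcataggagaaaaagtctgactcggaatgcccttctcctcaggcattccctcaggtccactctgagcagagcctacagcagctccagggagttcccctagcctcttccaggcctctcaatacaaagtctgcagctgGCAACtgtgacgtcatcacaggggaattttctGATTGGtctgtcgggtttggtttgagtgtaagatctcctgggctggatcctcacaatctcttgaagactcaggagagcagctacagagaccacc

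Each motif was searched on both strands of 33469 promoter windows of the same length. GCAAC followed by GATTGG with 15 to 35 bases between them, letters and spacing set after the sequences had been read, was found in 0.326% of windows and in the 3 class II chain genes. In RT1-Da the pair began at positions -82 and -50 from the start, in RT1-Db1 at -112 and -81, and in RT1-Ba at -76 and -44. The form of the kappaB motif was found in 5.37% of windows. It occurred in Ubd at -15, at 2 positions in Cd74, at 1 in Tap1, and at 3 positions in Cxcl10, of which 2 overlap.

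For the class I side, the windows of Psmb8, Tap1 and Cxcl10 are shown because each holds a form of the interferon-stimulated response element, TTTC and TTTC with 2 bases between them. That form was found in 3.92% of windows. Psmb8's window is chr20:4656982-4657281 on the minus strand, Tap1's chr20:4668494-4668793 on the minus strand and Cxcl10's chr14:15988816-15989115 on the plus strand. Capitals mark that element in all 3 sequences, on either strand, and the form of the kappaB motif in Tap1 and Cxcl10. In Psmb8 they also mark TTC and GAA with 3 bases between them, a form of the gamma-activated site found in 8.87% of windows.
Psmb8: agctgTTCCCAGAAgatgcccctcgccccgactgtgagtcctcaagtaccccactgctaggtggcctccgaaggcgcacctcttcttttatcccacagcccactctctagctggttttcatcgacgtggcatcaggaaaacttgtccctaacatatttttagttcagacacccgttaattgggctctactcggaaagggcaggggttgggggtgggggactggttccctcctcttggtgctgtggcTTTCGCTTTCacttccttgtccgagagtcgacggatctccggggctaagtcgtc
Tap1: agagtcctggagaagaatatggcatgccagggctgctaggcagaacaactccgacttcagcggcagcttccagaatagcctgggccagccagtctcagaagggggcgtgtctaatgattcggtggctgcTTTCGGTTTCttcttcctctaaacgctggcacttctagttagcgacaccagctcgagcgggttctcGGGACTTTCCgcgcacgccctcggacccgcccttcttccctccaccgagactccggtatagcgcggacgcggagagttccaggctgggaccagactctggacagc
Cxcl10: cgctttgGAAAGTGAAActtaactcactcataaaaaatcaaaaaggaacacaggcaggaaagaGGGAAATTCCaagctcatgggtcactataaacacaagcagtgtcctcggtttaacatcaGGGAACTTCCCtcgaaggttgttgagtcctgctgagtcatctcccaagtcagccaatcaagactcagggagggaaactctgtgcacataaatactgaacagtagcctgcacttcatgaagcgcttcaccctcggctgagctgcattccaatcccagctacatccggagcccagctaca

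In the window of Psmb9 none of these motifs was found, which says only that this stretch does not hold those letters. The windows of Tap1 and Psmb9 overlap by 44 bases.

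Ubd fell into high and low arrays that cut across the dose groups. Its log2 signal was 10.15, 8.24, 11.42, 9.45, 9.51 and 9.26 in vehicle livers. At 61.2 mg/kg it was 9.63, 6.40 and 6.53, and at 122.5 mg/kg 10.89, 6.66 and 9.79. At 244.6 mg/kg it was 6.21, 6.58 and 6.41, at 489.2 mg/kg 8.74, 9.89 and 6.35, and at 978.5 mg/kg 8.34, 8.82 and 9.22. No array lay between 6.66 and 8.24, a gap of 1.58 that left 7 arrays below it and 14 above. Of those 7 arrays, 0 of 6 were vehicle, 2 of 3 were at 61.2 mg/kg, 1 of 3 at 122.5 mg/kg, 3 of 3 at 244.6 mg/kg, 1 of 3 at 489.2 mg/kg and 0 of 3 at 978.5 mg/kg. The low value was therefore shared by all animals at 244.6 mg/kg, the group that led to the choice of the gene, and by 1 or 2 animals at each of 3 other doses, while all arrays at the highest dose lay within the vehicle range. All 3 arrays at 244.6 mg/kg were below every vehicle array, as in 3.07% of all genes, and nothing is read from this, since that contrast chose the gene.

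**Figure D1:**
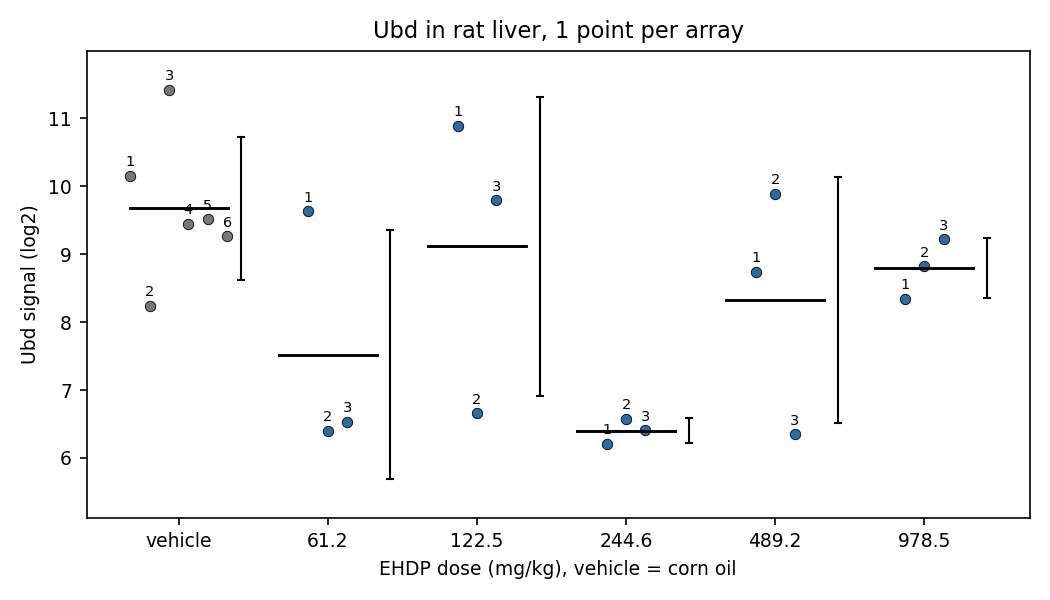
Ubd signal (log2, vertical axis) in each of 21 arrays by EHDP dose (mg/kg, horizontal axis), vehicle in grey, with the replicate number above each point; lines are group means and bars ± 1 SD. The 7 low arrays lie between 6.21 and 6.66 and the others between 8.24 and 11.42, and 61.2, 122.5 and 489.2 mg/kg each have arrays on both sides.

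Group means of Ubd were 9.67 ± 1.05 in vehicle livers (SD, n = 6), and 7.52 ± 1.83, 9.11 ± 2.20, 6.40 ± 0.19, 8.33 ± 1.81 and 8.79 ± 0.44 at 61.2, 122.5, 244.6, 489.2 and 978.5 mg/kg (SD, n = 3 each). The means did not follow dose. Ordered from the highest, they ran vehicle, 122.5, 978.5, 489.2, 61.2 and 244.6 mg/kg, and each step between neighbours, from 0.32 to 1.12, was smaller than the larger SD of the pair. Differences from vehicle were -2.15, -0.56, -3.27, -1.35 and -0.88 at the 5 doses from low to high, each with an SE of 0.86. These are given without a test. Single animals moved them: with each array left out in turn they lay between -3.21 and -1.59 at 61.2 mg/kg, -1.45 and 0.67 at 122.5 mg/kg, -3.56 and -2.92 at 244.6 mg/kg, -2.13 and -0.36 at 489.2 mg/kg, and -1.16 and -0.53 at 978.5 mg/kg. The value of 0.67 came without replicate 2 of 122.5 mg/kg and that of -0.36 without replicate 3 of 489.2 mg/kg, the low array of each group. With array weights the difference at 122.5 mg/kg was -2.56. Ubd's range over all arrays, 5.21, was the 6th widest of 14218 genes, whose median range was 0.58. Its residual SD within groups, 1.39, was the 8th highest.

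A comparison of dose groups whose means hold neither the vehicle nor the 244.6 mg/kg arrays could be tested. The mean of the 489.2 and 978.5 mg/kg groups was 8.56 and that of the 61.2 and 122.5 mg/kg groups 8.32, a difference of 0.24 ± 0.70 (SE, n = 6 against 6, limma adjusted p = 0.917). The 95% interval of that difference, -1.23 to 1.71, covers changes of more than 2-fold either way. The SE and p came from the spread of all 21 arrays, and with only the 12 arrays compared the difference was again 0.24 (limma adjusted p = 0.93). With each of those 12 arrays left out in turn it lay between -0.37 and 0.77, the lowest without replicate 2 of 122.5 mg/kg, and with array weights it was 1.37 (limma adjusted p = 0.311).

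From array to array Ubd had weak correlations with the other genes. Over the 21 arrays its Pearson r with the other 8 members ran from -0.25 for Psmb9 to 0.33 for RT1-Db1, with a median of 0.13. These arrays share 1 normalisation and their dose groups, and the correlations are descriptions with no test. The genes whose values were most like Ubd's were Apoc2, an activator of lipoprotein lipase (r = 0.68), Grik2, a glutamate receptor subunit (0.65), Grk4, a receptor kinase (0.63), Atg7, an enzyme of autophagy (0.62), Pcnx2 (0.62) and St6galnac6, a sialyltransferase (0.60). Grik2 is on chromosome 20 as well, the others on chromosomes 1, 14, 4, 19 and 3 in the order given. Apoc2 moved over a far narrower span, at 13.93 to 14.03 at 244.6 mg/kg, against 14.13 to 14.25 in vehicle livers. After group means were subtracted, the highest values were those of Ap5s1 (0.80), Adora2b, an adenosine receptor (0.75), Zfp697 (0.70) and Tfcp2l1, a transcription factor (0.70). They were taken as the highest among 14218 genes, and no relation is read from them.

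No partner of Ubd passed the test. Of 6 other measured genes for FAT10 conjugation and recognition, which include the conjugating enzyme Ube2z (mean 9.98) and the FAT10-binding protein Nub1 (9.23), 0 passed at 61.2, 122.5, 489.2 or 978.5 mg/kg or in the comparison of the 2 highest with the 2 lowest doses (limma, smallest adjusted p = 0.189 at 978.5 mg/kg, where 1 had an unadjusted p under 0.05). Their median difference at 978.5 mg/kg was 0.03, beside -0.02 for all genes. Of 8 other ubiquitin-like modifiers, such as Nedd8 (mean 12.13), 0 passed as well (limma, smallest adjusted p = 0.0597 at 978.5 mg/kg, where 2 had an unadjusted p under 0.05).

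Among the other members, the class II gene RT1-Db1 was called lower at the highest dose, a call lost in 13 of 18 alternative fits. The class I, immunoproteasome and chemokine genes did not pass at any tested dose. Of the 8 members tested against vehicle, 0 passed at 61.2 mg/kg, where limma called 0.0141% of all genes, 0 at 122.5 mg/kg (0.113% of all genes), 0 at 489.2 mg/kg (2.9%) and 1, RT1-Db1, at 978.5 mg/kg (10.2%). At an unadjusted p under 0.05 the counts were 0, 0, 1 and 2 in the same order. Between the 2 highest and the 2 lowest doses 0 of 9 members passed (3.05% of all genes), and 0 had an unadjusted p under 0.05. The share of 1 in 8 is close to the background at 978.5 mg/kg. The dose comparisons share their vehicle arrays, so values at neighbouring doses are not independent.

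**Figure D2:**
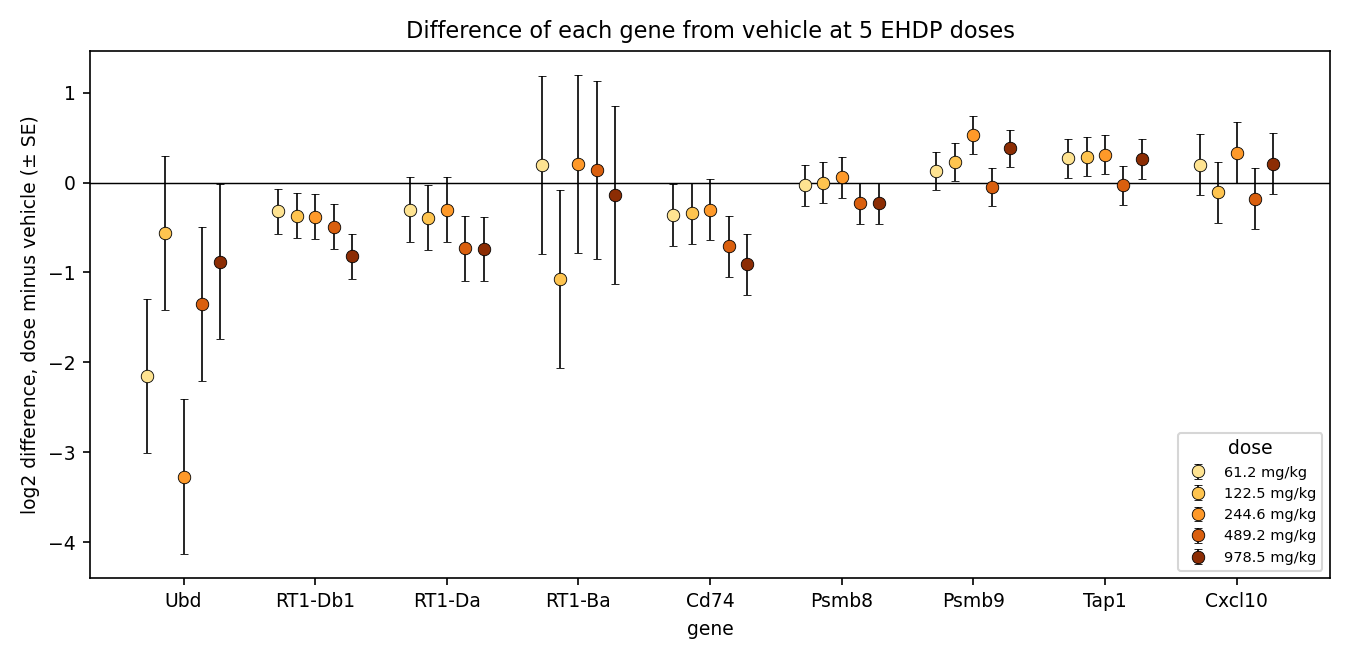
Log2 difference from vehicle, dose minus vehicle (vertical axis, ± SE from limma, n = 3 against 6), for each gene (horizontal axis) at the 5 EHDP doses, low to high from left to right within a gene. Ubd has the most negative value, -3.27 at 244.6 mg/kg, and RT1-Db1, RT1-Da and Cd74 stand at -0.82, -0.74 and -0.91 at 978.5 mg/kg.

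RT1-Db1, which encodes a beta chain of class II, fell at 978.5 mg/kg. Its log2 signal was 8.96, 9.24 and 8.45 at that dose, against 9.95, 9.53, 9.80, 9.75, 9.43 and 9.79 in vehicle livers. All 3 arrays lay below every vehicle array, which held for 6.79% of all genes in that direction. The fall was 1.77-fold (-0.82 ± 0.25 on the log2 scale, SE, n = 3 against 6, limma adjusted p = 0.0437). The call rests on the setting. It was lost in 13 of 18 alternatives and kept in 5. In fits that left out vehicle replicate 1, 2, 3, 4 or 6, or replicate 1 or 3 of 978.5 mg/kg, RT1-Db1 did not pass. Over all 18 alternatives the limma adjusted p ran from 0.013 to 0.263 while the difference stayed at or below -0.61. At the lower doses its values were 9.45, 9.46 and 9.26 at 61.2 mg/kg, 9.56, 8.94 and 9.50 at 122.5 mg/kg, 9.03, 9.25 and 9.69 at 244.6 mg/kg and 8.31, 10.00 and 9.33 at 489.2 mg/kg. Group means were lower at each higher dose, from 9.71 ± 0.19 in vehicle livers (SD, n = 6) over 9.39, 9.33, 9.32 and 9.21 to 8.88 ± 0.40 at 978.5 mg/kg (SD, n = 3), although no step between neighbouring doses was tested. That order rests on replicate 1 of 489.2 mg/kg, at 8.31. Without it the difference from vehicle at 489.2 mg/kg was -0.04, beside -0.32 at 61.2 mg/kg. The probe set's suffix (_s_at) marks, in Affymetrix naming, probes that can bind several transcripts. RT1 genes are closely related, and signal from a neighbouring beta chain cannot be told apart from it.

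Cd74, the invariant chain, had the lowest mean of any dose at 978.5 mg/kg as well. It stood at 10.42, 10.28 and 9.68 there, against 11.09, 10.89, 11.24, 11.03, 10.76 and 11.23 in vehicle livers, with all 3 arrays below every vehicle array. The difference, -0.91 ± 0.34 (SE, 1.88-fold), did not pass (limma adjusted p = 0.0965). RT1-Da, the alpha chain that pairs with RT1-Db1's product, stood at 9.82, 9.72 and 9.62 at 978.5 mg/kg, against 10.47, 10.17, 10.59, 10.49, 10.09 and 10.96 in vehicle livers. These groups did not overlap either, and the difference of -0.74 ± 0.36 did not pass (limma adjusted p = 0.205). Such a lack of overlap in that direction, seen for RT1-Da and Cd74, held for 6.79% of all genes. When only the 9 arrays of this comparison were fitted, RT1-Db1, RT1-Da (limma adjusted p = 0.0212) and Cd74 (limma adjusted p = 0.00821) all passed. That fit called 961 of 14218 genes, and the 3 genes moved together across animals, so their calls are not independent.

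At 489.2 mg/kg a single animal set the values of these genes. RT1-Da stood at 8.12, 10.76 and 10.32 and Cd74 at 8.83, 11.37 and 10.78, so that replicate 1 was the lowest of all 21 arrays and replicate 2 within or above the vehicle range. The differences from vehicle were -0.73 for RT1-Da and -0.71 for Cd74 (limma adjusted p = 0.36 and 0.339). Without replicate 1 they were 0.08 and 0.03. Without replicate 2 they were -1.24 and -1.23, and Cd74 passed (limma adjusted p = 0.0384), as did RT1-Db1 (-0.89, limma adjusted p = 0.0464). At 61.2, 122.5 and 244.6 mg/kg RT1-Da lay between 9.68 and 10.43 and Cd74 between 10.37 and 10.94, overlapping vehicle.

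The 3 genes moved together across animals. Over 21 arrays Cd74 had a Pearson r of 0.96 with RT1-Da and 0.94 with RT1-Db1, and RT1-Da one of 0.88 with RT1-Db1. With group means subtracted these were 0.96, 0.93 and 0.87. Without replicate 1 of 489.2 mg/kg, left out here after the data were seen, they were 0.92, 0.95 and 0.89 over 20 arrays, and 0.82, 0.90 and 0.75 with group means subtracted. Other genes with like values, named after the values were seen, were Slpi, a protease inhibitor (r = 0.96 with RT1-Da), and Irf8, a transcription factor of dendritic cells and macrophages (0.91). Without that array these were 0.91 and 0.85. In replicate 1 of 489.2 mg/kg Slpi stood at 7.77 and Irf8 at 6.93, the lowest arrays of both. The plot of Pearson r between genes shows higher values within the class II trio and within the Psmb8, Psmb9 and Tap1 trio than between them over 21 arrays. With group means subtracted the trios were less apart. RT1-Db1 then had a Pearson r of 0.70 with Psmb9 and 0.60 with Tap1, and Cd74 one of 0.65 with Psmb9, beside 0.70 between Psmb8 and Tap1. Without replicate 1 of 489.2 mg/kg those of RT1-Db1 were 0.46 and 0.66, that of Cd74 0.27 and that of Psmb8 0.70.

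**Figure D3:**
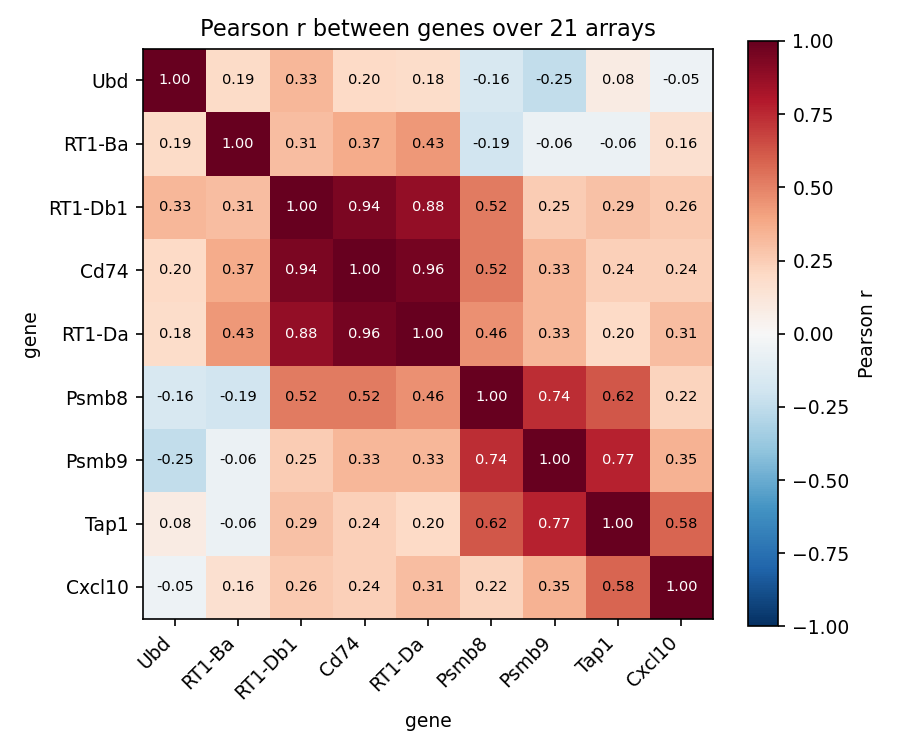
Pearson r between each pair of genes (both axes) over 21 arrays, red for positive and blue for negative values. Cd74, RT1-Da and RT1-Db1 reach 0.88 to 0.96 with each other, Psmb8, Psmb9 and Tap1 0.62 to 0.77, and Ubd -0.25 to 0.33 with the rest.

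Markers of the cells that carry class II were lower at 978.5 mg/kg, as were those of other cell types. Of all genes, 4.07% were called lower at that dose (limma), the share beside which the counts of markers that fell are to be read. Of 13 measured markers of Kupffer cells, the macrophages of the liver, 12 had a lower mean at 978.5 mg/kg than in vehicle livers, with a median difference of -0.59 beside -0.02 for all genes, and 1 of them, the scavenger receptor Cd163, fell (-0.77, limma adjusted p = 0.0209; the call was lost without replicate 1 of 978.5 mg/kg). The mean of the 13 markers per array was 9.39 to 9.78 at 978.5 mg/kg, against 9.80 to 10.27 in vehicle livers, and 8.96 in replicate 1 of 489.2 mg/kg, the lowest of all. Its Pearson r over 21 arrays was 0.82 with RT1-Da, 0.79 with Cd74 and 0.78 with RT1-Db1. Without that array it was 0.68, 0.63 and 0.68, and with group means subtracted as well 0.34, 0.24 and 0.35. Mpeg1 (mean 12.04), Clec4f (11.53) and C1qa (10.95) had the highest levels of the list. Of 7 dendritic cell markers, 6 had a lower mean at 978.5 mg/kg and 3 fell, Flt3 (-0.34, limma adjusted p = 0.0369), Itgax (-0.48, limma adjusted p = 0.0383) and Clec9a (-0.60, limma adjusted p = 0.0443). These and Cd163 were named after their values were seen, and Clec9a and Flt3 lay below 6.5 on all arrays of both groups. With each of 9 arrays left out in turn Clec9a passed in 1 fit, Flt3 in 5 and Itgax in 6. The mean per array of the dendritic cell list was 6.34 to 6.44 at 978.5 mg/kg, against 6.58 to 6.94 in vehicle livers. Its Pearson r with RT1-Db1 was 0.75, and 0.75 without replicate 1 of 489.2 mg/kg too. With group means subtracted these were 0.56 and 0.51.

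Lower means were seen beyond the cells that carry class II. At 978.5 mg/kg all 8 stellate cell markers had a lower mean and 2 fell, beside 4.07% of all genes (median difference -0.31). Their mean per array was 7.45 to 7.82, against 7.83 to 8.18 in vehicle livers. All 9 markers of natural killer cells had a lower mean, with a median of -0.25, and 1, Klrb1a, fell (-0.31, limma adjusted p = 0.0481). Their mean per array was 5.35 to 5.50, against 5.52 to 5.97 in vehicle livers. All 5 B cell markers (median -0.31), 11 of 12 T cell markers (-0.18), 8 of 9 of sinusoidal endothelial cells (-0.20) and 5 of 6 of neutrophils (-0.19) had a lower mean. Of these 4 lists 0 markers passed (limma), where 5 B cell, 5 T cell, 1 sinusoidal endothelial and 1 neutrophil marker had an unadjusted p under 0.05. Means per array lay below vehicle for the B cell and neutrophil lists, and met at 5.82 for T cells. Those of sinusoidal endothelial cells overlapped, at 8.73 to 9.19 against 8.78 to 9.47 in vehicle livers. Their median difference lay between -0.26 and -0.20 at every dose, so it was not particular to 978.5 mg/kg. Other lists were lower below 978.5 mg/kg too. From 61.2 to 489.2 mg/kg the median difference was -0.11, -0.29, -0.40 and -0.32 for Kupffer cell markers. For stellate cell markers it was -0.18, -0.20, -0.22 and -0.20. For natural killer cell markers it was -0.07, -0.15, -0.26 and -0.07, and for neutrophil markers -0.28, -0.21, -0.16 and 0.06. The Kupffer, dendritic, stellate, T and B cell lists had their lowest median at 978.5 mg/kg. At 978.5 mg/kg 4 of 5 bile duct markers had a lower mean and 1 rose. Hepatocyte markers averaged 13.67 to 13.80 at 978.5 mg/kg, against 13.59 to 13.77 in vehicle livers, with a median difference of 0.00. Of these 11 markers 1, Arg1, rose at that dose (0.28, limma adjusted p = 0.00881), beside 6.18% of all genes. Arg1 passed with each array left out. It was also called at 489.2 mg/kg (0.28, limma adjusted p = 0.0196), kept in 7 of 9 fits with an array left out. Between the 2 highest and 2 lowest doses it was called too (0.25, limma adjusted p = 0.00951). The part of these markers in the values of the class II genes was not tested. In the sinusoidal endothelial, stellate and T cell lists replicate 1 was the lowest array at every dose. It is 1 of 3 arrays at each dose and 1 of 6 in vehicle livers, so it weighs more in the dose means.

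RT1-Ba, the alpha chain of the other class II pair, gave values that depended on the probe set. With the main probe set its log2 signal was 6.34, 10.18, 11.03, 9.91, 10.52 and 11.20 in vehicle livers, 10.98, 9.65 and 9.56 at 61.2 mg/kg and 10.14, 5.65 and 10.60 at 122.5 mg/kg. At 244.6 mg/kg it was 9.69, 9.74 and 10.78, at 489.2 mg/kg 8.34, 11.13 and 10.54, and at 978.5 mg/kg 10.37, 9.11 and 9.69. Vehicle replicate 1 and replicate 2 of 122.5 mg/kg were both below 6.4, and the next array stood at 8.34. The range of 5.55 was the 4th widest of all genes, and the dose differences, from -1.07 at 122.5 mg/kg to 0.21 at 244.6 mg/kg, lay near or under their SE of 0.99. None of the 4 tested doses passed (limma adjusted p from 0.932 to 0.992).

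Its 3 other probe sets did not show those low arrays. The second, by width of range, read 9.35 in vehicle replicate 1, its highest array, and 8.64 in replicate 2 of 122.5 mg/kg. It averaged 7.77 at 978.5 mg/kg, against 8.42 in vehicle livers. The other pair stayed between 7.84 and 8.60 on all arrays. Over 21 arrays the main probe set had a Pearson r of -0.48, -0.33 and -0.16 with the second and the other pair, while that pair had one of 0.88 with each other. Values of RT1-Ba are therefore values of a probe set. RT1-Db1's second probe set lay near the low end of the scale, at a mean of 4.79 at 978.5 mg/kg and 5.22 in vehicle livers, with a Pearson r of 0.55 with the main one.

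**Figure D4:**
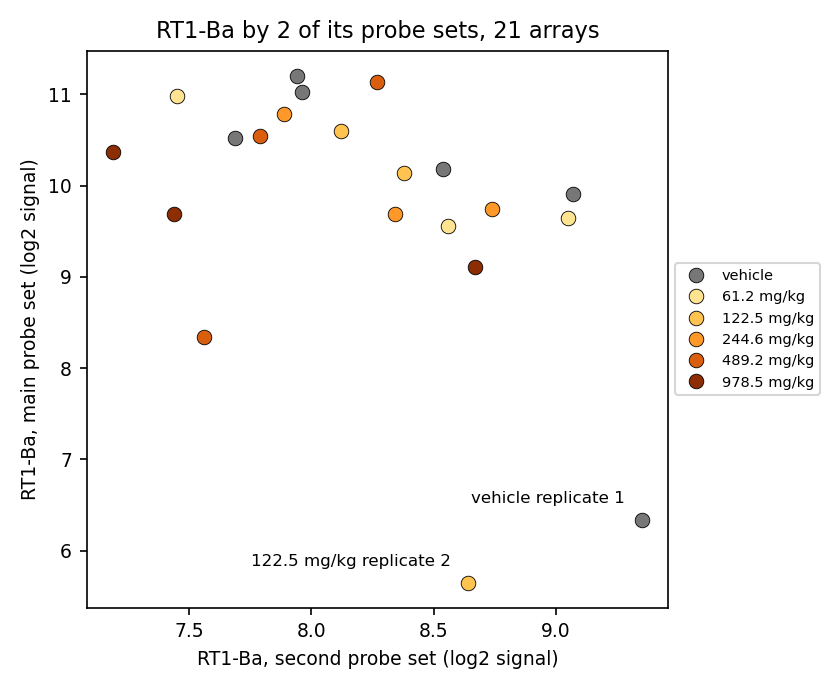
RT1-Ba signal (log2) by the main probe set (vertical axis) against the second (horizontal axis), 1 point per array, coloured by dose group. The arrays at 6.34 (vehicle replicate 1) and 5.65 (122.5 mg/kg replicate 2) on the vertical axis read 9.35 and 8.64 on the horizontal one, and Pearson r is -0.48 over the 21 arrays.

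Of 16 other genes of class II presentation, 0 passed at any tested dose (limma, smallest adjusted p = 0.072 at 978.5 mg/kg, where 8 had an unadjusted p under 0.05). At 978.5 mg/kg 13 of them had a lower mean than in vehicle livers, with a median difference of -0.20 beside -0.02 for all genes. Their mean per array was 7.88 to 8.23 at 978.5 mg/kg, against 8.11 to 8.38 in vehicle livers, so the ranges overlapped.

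Psmb8 and Psmb9, catalytic subunits of the immunoproteasome, did not pass at any tested dose. Psmb8 stood at 10.34, 10.91 and 10.14 at 978.5 mg/kg, against 11.02, 10.82, 10.89, 10.76, 10.14 and 10.54 in vehicle livers (-0.23 ± 0.23, SE, limma adjusted p = 0.576). Over the other doses it ran from 9.96, in replicate 1 of 489.2 mg/kg, to 11.07. Psmb9 stood at 10.20, 10.14 and 9.96 at 244.6 mg/kg, against 9.90, 9.57, 9.62, 9.64, 9.27 and 9.42 in vehicle livers. All 3 arrays lay above every vehicle array, as in 5.51% of all genes; this difference of 0.53 was not tested, since that dose led to the choice of Ubd. At 978.5 mg/kg Psmb9 stood at 9.85, 10.37 and 9.63, within or above the vehicle range (0.38 ± 0.21, limma adjusted p = 0.281, 95% interval -0.06 to 0.81). Replicate 1 of 489.2 mg/kg, at 8.87, was its lowest array.

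Tap1, which pumps peptides to class I molecules, stood at 8.74, 9.41 and 8.44 at 978.5 mg/kg, against 8.95, 8.53, 8.73, 8.53, 8.15 and 8.73 in vehicle livers (0.26 ± 0.22, SE, limma adjusted p = 0.507). Its highest array was replicate 1 of 122.5 mg/kg, at 9.52. Psmb9 had a Pearson r of 0.74 with Psmb8 and 0.77 with Tap1, or 0.92 and 0.76 with group means subtracted. Tap1 also went up and down with genes that answer type I interferon. Over 21 arrays its Pearson r was 0.88 with the mean of 37 such genes, which do not include it, and 0.87 with Irf7, a regulator of that response named after its values were seen. Tap1's second probe set averaged 4.96 at 978.5 mg/kg and 4.89 in vehicle livers, near the low end of the scale, and had a Pearson r of -0.34 with the main one.

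Cxcl10 was the member with the lowest level, at a mean of 6.65 over all arrays. It stood at 6.75, 7.42 and 6.24 at 978.5 mg/kg, against 6.75, 6.17, 6.53, 6.06, 5.89 and 8.12 in vehicle livers (0.21 ± 0.34, SE, limma adjusted p = 0.751). The highest of all 21 arrays was vehicle replicate 6, and at the other doses the gene ran from 6.19 to 7.11. Among 4 other genes of the CXCR3 axis, 1 fell at 978.5 mg/kg, the receptor Cxcr3 itself (-0.41, limma adjusted p = 0.0172), which stood at 5.09 to 5.34, against 5.40 to 5.85 in vehicle livers. That call was lost without replicate 1 or 3 of 978.5 mg/kg. Of all genes, 4.07% were called lower at that dose.

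**Figure D5:**
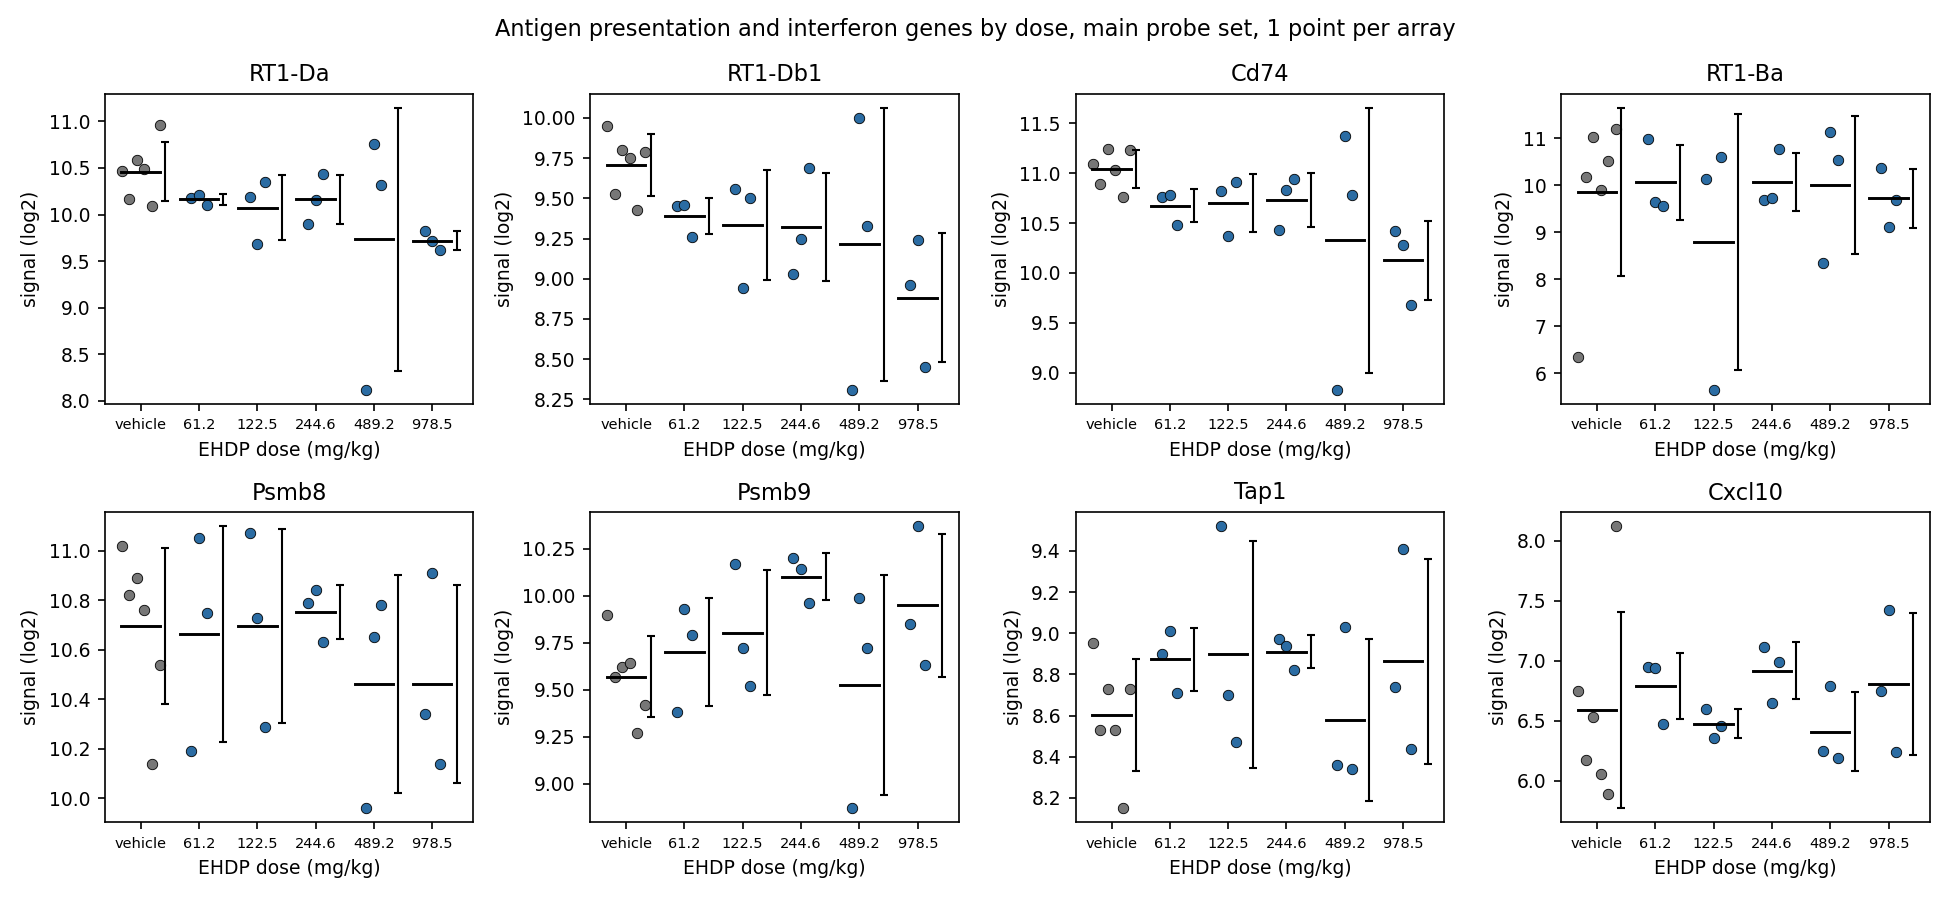
Signal (log2, vertical axes, scaled to each gene) of the 8 genes other than Ubd by EHDP dose (mg/kg, horizontal axes), 1 point per array, vehicle in grey; lines are group means and bars ± 1 SD. RT1-Da, RT1-Db1 and Cd74 lie below all vehicle arrays at 978.5 mg/kg, and 489.2 mg/kg has 1 array far below the rest in them, at 8.12, 8.31 and 8.83.

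Of 132 other genes on the pathway lists, 15 passed at 978.5 mg/kg, a share of 11.4% that is close to the 10.2% of all genes, of which 6.18% rose and 4.07% fell. The genes named from here on are therefore a description of those lists. Of 16 other genes of class I presentation, 3 rose and 1 fell, with a median difference of 0.04. Psme1 and Psme2, the subunits of the proteasome activator that interferon gamma induces, rose by 0.40 ± 0.07 and 0.27 ± 0.07 (SE, limma adjusted p = 0.00077 and 0.0135). Psme1 stood at 12.52 ± 0.08 at 978.5 mg/kg (SD, n = 3) and 12.12 ± 0.09 in vehicle livers (SD, n = 6), and passed with each array left out. Psme2 did not pass without replicate 1 of that dose. Tapbp, which holds class I molecules beside the peptide pump, rose by 0.31 ± 0.09 (limma adjusted p = 0.0322) and did not pass without vehicle replicate 1 or 6 or replicate 1 or 2 of that dose. The class I gene RT1-CE10 fell by 0.84 ± 0.23 (limma adjusted p = 0.0241) and did not pass without replicate 1 or 3 of that dose. It was also lower in the 2 highest than in the 2 lowest doses, at 8.10 and 8.83 (limma adjusted p = 0.0381), and kept that call with 4 of 12 arrays left out in turn. Class I genes of the rat are close copies of each other, so its signal is uncertain. The constitutive proteasome subunit Psmb5 was called as well (0.30, limma adjusted p = 0.0365), and passed in 2 of 9 fits with an array left out.

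Of 37 genes that answer type I interferon, 3 rose and 0 fell at 978.5 mg/kg, with a median difference of 0.20. That median was not particular to the highest dose. It was 0.21, 0.09, 0.12 and 0.03 from 61.2 to 489.2 mg/kg, and -0.02 between the 2 highest and the 2 lowest doses. Ifi27l2b, a small interferon-inducible protein, stood at 13.65 ± 0.17 at 978.5 mg/kg (SD, n = 3) and 12.82 ± 0.17 in vehicle livers (SD, n = 6), and rose by 0.83 ± 0.15 (SE, limma adjusted p = 0.00126). It passed with each array left out. Ifit2, an RNA-binding antiviral protein, rose by 0.85 ± 0.20 (limma adjusted p = 0.00872), lost only without replicate 3 of that dose, and Ifi44 by 0.45 ± 0.14 (limma adjusted p = 0.0389), kept in 3 of 9 such fits. Of 23 other genes that answer interferon gamma, 1 rose and 2 fell. Ifngr1, a chain of the interferon gamma receptor, fell by 0.51 ± 0.12 (limma adjusted p = 0.00762) and passed with each array left out. The chemokine Ccl5 fell by 0.94 ± 0.24 (limma adjusted p = 0.0169), lost without replicate 1 or 3 of 978.5 mg/kg. The GTPase Igtp was called higher (0.70, limma adjusted p = 0.0422) and kept that in 3 of 9 such fits. The list's median was -0.10.

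Of 23 genes that answer tumour necrosis factor through NF-kappaB, 3 rose and 0 fell at 978.5 mg/kg, with a median difference of -0.13. Sod2, the mitochondrial superoxide dismutase, rose by 0.48 ± 0.10 (SE, limma adjusted p = 0.00513) and passed with each array left out. Nfkbia, the inhibitor of NF-kappaB, was called at 0.43 ± 0.13 and Tnfaip2 at 0.51 ± 0.15 (limma adjusted p = 0.0342 and 0.0382), each kept in 3 of 9 fits with an array left out. Tnfaip2 was called at 489.2 mg/kg too (0.60, limma adjusted p = 0.0363), again kept in 3 of 9 fits. Of the 132 genes on all these pathway lists, 0 passed at 61.2 and at 122.5 mg/kg (limma), where 7 and 5 had an unadjusted p under 0.05. At 489.2 mg/kg 1 passed, beside 2.9% of all genes, and between the 2 highest and the 2 lowest doses 1 did, beside 3.05%.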

How the data were processed

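The values are log2 signals as the authors deposited them, made by robust multi-array averaging (RMA) per the submitters' processing notes, with no version given there, from Affymetrix arrays hybridised with RNA amplified from 100 ng of total RNA. Of 31099 probe sets, 20832 had exactly 1 gene in the probe table, 436 several and 9831 none; only the first were named, and each of 14218 genes was represented by its probe set with the highest mean. No further scaling was applied. The depth of an array is not a count, and the number of arrays, 3 per dose and 6 for vehicle, limits the precision.

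A limma 3.58.1 model in R 4.3.3 with 1 mean per group was fitted to all 21 arrays, with Benjamini-Hochberg adjustment over 14218 genes at 0.05. Nothing in the sources says more of the arrays of a group than their replicate numbers, so p-values measure the spread between these samples. The members, gene lists and tests were chosen with earlier results of these data known. Genes of the lists were named where they were called, at most 4 per list, and marker genes by highest mean level; others are said to be named after their values were seen. The genes most like Ubd were the 6 with the highest Pearson r over all arrays and the 4 with the highest r after subtracting group means, placeholder symbols left out. On simulated data 100 of 14218 genes were changed 1.5-fold and 100 others 2-fold. The fit at 978.5 mg/kg recovered 86% and 95% of them, with 5 false calls. Those genes were drawn from all genes, whose median residual SD was 0.14. The members had residual SDs of 0.33 to 1.59, so this recovery cannot be carried over to them. Alternatives covered the probe set rule, scaling, filters, eBayes options, array weights, the replicate number as a block, only the arrays compared, and each array left out. Positions and promoters are RefSeq's on GRCr8. Other software was pandas 2.3.3 and matplotlib 3.10.9 on Python 3.11.15.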

Additional observations from a re-analysis of the deposited data

Results flagged for a closer look

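RT1-Ba in vehicle replicate 1 read 6.34 with the main probe set, while the nearest of the other vehicle arrays read 9.91. That gap was 0.73 of the group's whole range, above the critical value for 6 samples. It was the only such value in the vehicle group among the 14 probe sets of the 9 genes, and chance gives about 1 in 20. The same array was the highest of all 21 in another probe set of the gene, at 9.35.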

How the results depend on the processing

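Counts of members called at 61.2 mg/kg and between the 2 highest and 2 lowest doses were 0 under every alternative run. At 122.5 mg/kg the count was 1 with array weights (RT1-Ba, -3.27, limma adjusted p = 0.0422) and 0 otherwise. At 489.2 mg/kg it was 0 to 2 with each array left out and 0 otherwise. At 978.5 mg/kg, where the main count was 1, it was 0 to 1 with each array left out. It was 0 with probe sets averaged per gene, arrays centred on a common median, a floor at the 20th percentile, eBayes with trend and robust options, and array weights, and 3 with only the arrays compared. With the replicate number as a block it was 0, with RT1-Db1 at -0.87 (limma adjusted p = 0.0997). Over 45 same-numbered pairs deviations of all genes had a median r of 0.04 (-0.23 to 0.37), and 17 pairs exceeded 0.1. In the mean of the sinusoidal endothelial markers replicate 1 was the lowest array of every group. It stood at 8.78 in vehicle livers and at 8.65, 8.70, 8.58, 8.72 and 8.73 from the lowest to the highest dose. Replicate 1 was also the lowest array of every dose group in the mean of the stellate cell markers, at 7.59, 7.80, 7.75, 7.42 and 7.45. The same held for the T cell markers, at 5.89, 5.79, 5.73, 5.80 and 5.67. In vehicle livers it was not the lowest of these lists, at 7.89 and 5.90. No other marker list had replicate 1 lowest at every dose. Whether same-numbered arrays share something is therefore not settled by the median r. No called value reversed. Ubd at 244.6 mg/kg lay between -3.56 and -2.92 with each array left out. The median r of the members with Ubd lay between 0.05 and 0.17. All genes called at 978.5 mg/kg numbered 1457, 961 with only the arrays compared, 904 without replicate 1 and 702 without replicate 3 of that dose. Between the 2 highest and 2 lowest doses they numbered 433, 828 with array weights, and 264 to 497 with each array left out. Cxcl10 had no value among genes above the median level. Members near the low end of the scale are limited by signal over background, which the deposited values do not give.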

Other observations

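Among genes of the marker lists that the text has not described, Epcam, an adhesion protein of bile duct cells, was higher at 978.5 mg/kg, at 9.90 ± 0.13 (SD, n = 3) and 9.26 ± 0.20 in vehicle livers (SD, n = 6). The difference was 0.64 ± 0.13 (SE, limma adjusted p = 0.00324), and the gene passed with each array left out. The other 4 measured bile duct markers did not pass. Of all genes, 6.18% were called higher at that dose and 4.07% lower. Pdgfrb, a receptor of stellate cells, was lower, at 6.65 ± 0.09 at 978.5 mg/kg (SD, n = 3) and 7.39 ± 0.30 in vehicle livers (SD, n = 6), a difference of -0.74 ± 0.16 (SE, limma adjusted p = 0.00518). It too passed with each array left out, and all 8 measured stellate cell markers had a lower mean at that dose, of which 2 fell. T cell markers (12 measured) and B cell markers (5 measured) gave 0 calls at 978.5 mg/kg (limma, smallest adjusted p = 0.0512 and 0.0682; 5 of each list had an unadjusted p under 0.05), and 11 and 5 of them had a lower mean. These genes were named after their values were seen.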
